A study of Homo sapiens with 15 samples.

Results

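On day 5 of cardiac differentiation, H1 human embryonic stem cells that had been dissociated and replated on day 2 (passaged) were compared with cells that had stayed in their wells without any further inducer (NP-ctrl, not passaged). The comparison asks which fates the progenitors of the replated culture had taken up by day 5, cardiac or other, next to cells that were left alone. Genes were taken into the comparison when at least 1 of the 2 day 5 libraries held at least 30 counts. This left 15315 of 60605 genes, 13200 of them protein-coding. All cells were wild type H1, an established line, and all had received the WNT activator CHIR99021 on day 0, which turns them into mesendoderm, and insulin in the medium on day 1. From day 2 NP-ctrl cells differentiated spontaneously, and NP-IWP2 cells, named here only beside the others, stayed in place with IWP2, an inhibitor of WNT secretion, until day 4. Passaged cells were lifted with EDTA and plated into new wells coated with Matrigel, with no WNT inhibitor. Replating also spread the cells over a larger surface, and the study states that the ROCK inhibitor Y27632 was added in its later differentiation experiments, so replating, cell density and Y27632 cannot be told apart here. Each arm had 1 library on each of days 3, 5, 7 and 10, and days 0, 1 and 2 had 1 shared library each. There are therefore no replicates, no difference below carries a test, and every interval covers counting error only.

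As background, the heart forms from mesoderm that leaves the primitive streak and then divides its fates. First heart field cells, marked by HAND1 and TBX5, make the early tube and the left ventricle. Second heart field and pharyngeal cells, marked by ISL1, TBX1, FGF8 and FGF10, are held as dividing progenitors by FGF signals before they add the outflow tract, right ventricle and atria. Mesoderm that takes neither route gives limb, body wall, mesothelium, fibroblasts, vessels and the mesoderm of the yolk sac, while the streak also gives endoderm. NKX2-5 is the homeodomain factor that marks committed cardiac progenitors of both fields.

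Levels are the deposited FPKM values, which are counts per kilobase of exon, relative to the library total, and they are given for NP-ctrl first. A difference is the ratio of these levels, with an exact 95% interval. A gene was called when that ratio was at least 2 in either direction, with counts at or under 3 set to 3. Among the 15315 genes, 2424 were called (15.8%). Of these, 990 were higher in passaged cells (6.46% of all genes) and 1434 were lower (9.36%), while 84.2% of genes lay within 2-fold and the median log2 ratio of all genes was 0.036. A difference of at least 4-fold was seen for 309 higher and 528 lower genes, and one of at least 16-fold for 58 and 101. The whole interval lay beyond 2-fold for 566 higher and 877 lower genes. At the edge of the filter, 102 genes had exactly 30 counts in their higher library and 91 genes just outside it had 29. Across the 15315 genes the Pearson correlation of log2(FPKM + 1) was 0.931 between the passaged and NP-ctrl libraries, 0.942 between passaged and NP-IWP2, and 0.985 between NP-ctrl and NP-IWP2. Genes are not independent replicates, so these values only describe the libraries. By this measure the static libraries lay closer to each other than either lay to the replated one.

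**Figure D1:**
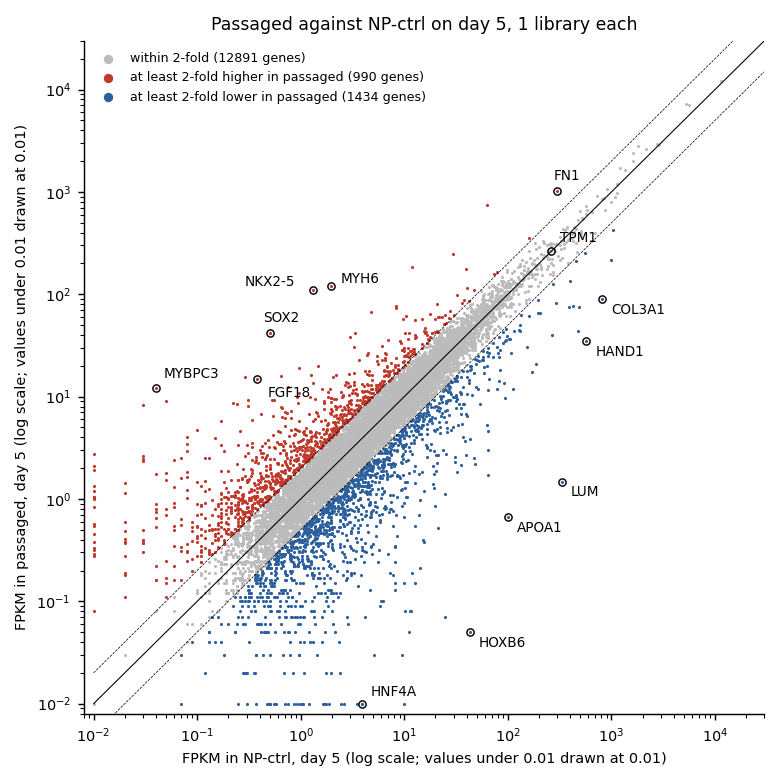
Level of each of the 15315 genes in NP-ctrl (x axis, FPKM, log scale) and in passaged cells (y axis, FPKM, log scale) on day 5, 1 library each, with lines at equality and at 2-fold. NKX2-5, MYH6, SOX2 and MYBPC3 lie far above the lines and HOXB6, LUM and APOA1 far below, while TPM1 lies on the line of equality. Values under 0.01 are drawn at 0.01.

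The total count was 15669741 in NP-ctrl and 15269132 in passaged cells on day 5, within the range of 13254723 to 20250115 over the 15 libraries. The mitochondrial genome gave 4.40% of the counts in NP-ctrl and 5.05% in passaged cells. Marker lists of 8 cell types were summed to see which cells the libraries held. The 6 cardiomyocyte markers summed to an FPKM of 402.6 in NP-ctrl and 462.3 in passaged cells, with all 6 above the filter in both. The fibroblast markers summed to 1603 and 310.1, the liver and yolk sac markers to 133.3 and 2.84, the epicardial markers to 9.96 and 1.42, and the endothelial markers to 6.97 and 4.84. The blood markers summed to 1.96 and 0.26 with GATA1 and HBZ at 0 counts in both. The neural markers summed to 0.52 and 41.8, nearly all of it SOX2, and the pluripotency markers to 32.6 and 11.8. Most of the cardiomyocyte sum in NP-ctrl was MYL7, which was at a lower level in passaged cells. MYH6, at 1.98 and 119.6, and NKX2-5, at 1.31 and 110, were higher in passaged cells. The cardiomyocyte sums therefore do not describe each marker. Both libraries held cardiac transcripts on day 5, and the sums of fibroblasts, epicardium, liver and yolk sac differed more than the cardiomyocyte sum. In bulk RNA, fewer cells of a type and less RNA per cell cannot be told apart.

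The 3 genes that led the higher side and have an entry in the RefSeq promoter table were MYBPC3, ASB2 and MYH6, all expressed in muscle. The 250 bases before the start of each are shown because these genes differed so widely, with 3, 2 and 226 counts in NP-ctrl and 784, 630 and 13299 in passaged cells, and the capitals mark every match, on either strand, to the letters AGGTGT for T-box factors, TNAAGTG for NKX2-5, AGATAA for GATA factors, CTTTGA for TCF and LEF factors, or TATAAA for the TATA box. All are written 5′ to 3′ along the minus strand of GRCh38.p14, at chr11:47352703-47352952, chr14:93976571-93976820 and chr14:23408274-23408523 in this order.
MYBPC3: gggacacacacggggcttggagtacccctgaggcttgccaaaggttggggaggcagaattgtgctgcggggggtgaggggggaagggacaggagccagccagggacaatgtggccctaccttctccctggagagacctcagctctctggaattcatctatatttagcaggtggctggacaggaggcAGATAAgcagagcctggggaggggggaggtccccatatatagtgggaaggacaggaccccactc
ASB2: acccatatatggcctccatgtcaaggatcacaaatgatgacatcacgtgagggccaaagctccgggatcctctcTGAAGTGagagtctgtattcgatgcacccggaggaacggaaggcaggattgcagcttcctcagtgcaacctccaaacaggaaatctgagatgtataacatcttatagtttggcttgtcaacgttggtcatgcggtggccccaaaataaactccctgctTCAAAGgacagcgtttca
MYH6: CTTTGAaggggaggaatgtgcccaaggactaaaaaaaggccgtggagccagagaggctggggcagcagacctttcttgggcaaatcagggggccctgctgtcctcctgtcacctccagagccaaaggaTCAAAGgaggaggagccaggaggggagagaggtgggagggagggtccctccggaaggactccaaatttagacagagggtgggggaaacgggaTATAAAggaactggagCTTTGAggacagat
The MYBPC3 window held 1 GATA match, 64 bases before the start. The ASB2 window, at 1 of its 2 starts in the table, held 1 NKX2-5 match and 1 TCF/LEF match. The MYH6 window held 3 TCF/LEF matches and a TATA box 30 bases before the start. None of these matches overlapped another. Of the 34943 distinct windows of the same length in the table, 9.57% held a T-box match, 8.74% an NKX2-5 site, 9.19% a GATA site, 11.2% a TCF/LEF core and 10.8% a TATA box. The windows of HABP2, SHISA3 and KCNJ3, chosen by the same rule on the lower side, held no match to any of these, and 37.7% of all windows held at least 1. These matches describe letters and not binding. Of the 24 leading genes, 15 had an entry.

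Among the core cardiac transcription factors the highest ratio was that of NKX2-5 (ENSG00000183072, chr5:173232109-173235311 on hg38). NKX2-5 had 42 counts in NP-ctrl and 3441 in passaged cells, an FPKM of 1.31 and 110.0. The passaged level was 84.1-fold higher (62.1 to 116.9). It had been 0.24 on day 2, and on day 3 it was 2.01 in NP-ctrl and 1.57 in passaged cells, so the separation was seen first on day 5. Its relative NKX2-6, a pharyngeal and cardiac homeodomain factor, had an FPKM of 8.27 and 76.3 and was 9.23-fold higher (8.05 to 10.6). MEF2C, a MADS box factor of the second heart field and of muscle, went from 2.19 in NP-ctrl to 16.4 in passaged cells, 7.45-fold (6.71 to 8.29). The muscle methyltransferase SMYD1 was 2.46-fold higher and the coactivator MYOCD 2.41-fold higher.

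Other core cardiac factors were lower in passaged cells. HAND1 (ENSG00000113196, chr5:154474972-154478227) had an FPKM of 570.4 in NP-ctrl and 34.8 in passaged cells, 16.4-fold lower (15.3 to 17.5). TBX5, the T-box factor of the first heart field and atria, was low in both with 114 and 36 counts and was 3.09-fold lower (2.11 to 4.62). TBX20 was 2.86-fold lower and ZFPM2, a GATA cofactor, 2.97-fold lower. The GATA factors, which both heart and endoderm use, were not called. GATA4 had an FPKM of 62.2 and 39.6, GATA5 33.5 and 18.0, and GATA6 84.9 and 47.3. HAND2, the partner of HAND1 with a role in the second heart field, was near equal at 49.5 and 62.0, although on day 3 it had been 28.1 in NP-ctrl and 0.71 in passaged cells. Of the 15 core factors above the filter, 5 were thus higher, 4 lower and 6 within 2-fold, with a median log2 ratio of 0.14 against 0.036 for all genes. A gene near 0 in 1 library passes the filter only through the other, so list counts and medians here are descriptions. NKX2-5 and HAND1, the members with the highest and lowest ratio, went opposite ways. The shares to set beside this and every later list count are 6.46% higher and 9.36% lower over all genes.

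Of 29 structural genes of the sarcomere, 14 were higher, 0 were lower and 15 were within 2-fold, with a median log2 ratio of 0.87. Over all genes, 6.46% were higher and 9.36% lower. The sarcomere median was 0.42 with at least 30 counts in both libraries, since several members passed only through passaged cells. MYBPC3, the thick filament binding protein C of heart, had 3 counts in NP-ctrl and 784 in passaged cells, a ratio of 268.2 (91.4 to 1303). MYH6, the fast atrial myosin heavy chain, had an FPKM of 1.98 in NP-ctrl and 119.6 in passaged cells, and was 60.4-fold higher (52.9 to 69.2). MYH7, the slow ventricular heavy chain, had 3 and 243 counts, and reads of these neighbouring near-identical genes may be shared. The skeletal and fetal cardiac actin ACTA1 was 52.3-fold higher (29.03 to 105.5), with 11 and 561 counts. SMPX was 19.7-fold, LDB3 9.36-fold, the myosin chaperone UNC45B 5.98-fold, TNNC1 3.63-fold and the giant spring protein TTN 2.35-fold higher. Abundant genes were within 2-fold. TPM1 had an FPKM of 260.1 and 264.1, a ratio of 1.01 (1.003 to 1.03). TNNT2, the usual marker of cardiomyocytes, had 12.02 and 15.2 with a ratio of 1.27 (1.18 to 1.36). ACTC1 had 184.1 and 318.4, and MYL7 was above the passaged level in NP-ctrl, at 378.8 against 203.7. On day 5 the arms were therefore within 2-fold in TNNT2 and TPM1 while MYBPC3 was near 0 in NP-ctrl and MYH6 low there.

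ASB2, a muscle ubiquitin ligase subunit, had 2 counts in NP-ctrl and 630 in passaged cells, a ratio of 323.3 (89.1 to 2675). LPL, the lipase that frees fatty acids for the heart, had 3 and 578 counts with a ratio of 197.7 (67.3 to 961.6). DGKI, a diacylglycerol kinase, was 35.7-fold higher (27.5 to 47.2), and CDCA7L, a relative of a MYC target, was 29.5-fold higher (18.7 to 49.4). Of 17 genes for calcium handling, channels and natriuretic peptides, 8 were higher, 3 lower and 6 within 2-fold. NPPB, a natriuretic peptide, had 33 and 415 counts and was 12.9-fold higher (9.05 to 19.0). PLN, which restrains the calcium pump, and SLC8A1, the sodium-calcium exchanger, were 5.00-fold and 4.62-fold higher, while the pump gene ATP2A2 was not called at 22.4 and 25.9. The gap junction gene GJA1 had an FPKM of 483.4 in NP-ctrl and 75.4 in passaged cells, 6.41-fold lower (6.201 to 6.64), and the L-type channel gene CACNA1C and the pacemaker channel gene HCN4 were 5.13-fold and 3.01-fold lower. GJA1 was 428.4 in the shared day 2 library, so its level stayed near that in NP-ctrl and was below it in passaged cells.

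Second heart field and pharyngeal genes had a median log2 ratio of 2.57, which was 1.51 with at least 30 counts in both libraries and also with no filter. Of the 13 members, 9 were higher, 3 lower and 1 within 2-fold. ISL1, the LIM factor that defines the field, had an FPKM of 21.3 in NP-ctrl and 60.0 in passaged cells, 2.81-fold higher (2.61 to 3.03). TBX1, which patterns the pharynx, was 2.85-fold higher. FGF8 had 3.32 and 41.9, 12.6-fold higher (9.99 to 16.2), and FGF10 had 9.62 and 57.0, 5.92-fold higher (5.53 to 6.35). The forkhead genes FOXC1 and FOXC2 were 8.89-fold and 26.4-fold higher, and EYA1, a cofactor in pharyngeal progenitors, was 6.50-fold higher. FOXC1 had been 144.2 on day 2, and its level of 73.9 in passaged cells was within 2-fold of that while 8.32 in NP-ctrl was below it. TCF21 and LHX2, factors of the branchial and epicardial mesoderm, were 6.71-fold and 3.47-fold lower, and SEMA3C, a guidance cue of the outflow tract, was 3.97-fold lower.

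Several FGF ligands, target factors and feedback inhibitors were higher in passaged cells, while the ligand FGF19 and 2 of the receptors were lower. Of 18 members, 11 were higher, 3 lower and 4 within 2-fold, with a median log2 ratio of 1.67. FGF8 and FGF10 stand in both lists. FGF18 had 12 counts in NP-ctrl and 451 in passaged cells and was 38.6-fold higher (21.9 to 75.2). ETV5, an ETS factor switched on by FGF, had an FPKM of 0.64 and 16.1 and was 25.0-fold higher (19.2 to 33.1), and its relatives ETV1 and ETV4 were 5.53-fold and 4.35-fold higher. The feedback inhibitors SPRY1, SPRY4, SPRY2 and DUSP6 were 9.44-fold, 4.38-fold, 2.14-fold and 2.34-fold higher. The receptor genes FGFR4 and FGFR2 were 6.49-fold and 4.60-fold lower, and FGFR1 and FGFR3 were not called, at 36.4 and 21.4 for FGFR1 and at 39.3 and 20.3 for FGFR3. FGF19 had 34 counts in NP-ctrl and 0 in passaged cells, 11.0-fold lower with 0 set to 3 counts.

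Factors of chamber identity were mostly higher, with 5 of 7 called and 0 lower. HEY1, a Notch target of the atria, had an FPKM of 1.48 and 20.1 and was 13.6-fold higher (11.3 to 16.4). IRX5 was 6.86-fold, NR2F2 2.94-fold and IRX3 2.62-fold higher, while the ventricular factors HEY2 and IRX4 were not called, at 4.72 and 6.82 for HEY2 and at 3.00 and 2.20 for IRX4.

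**Figure D2:**
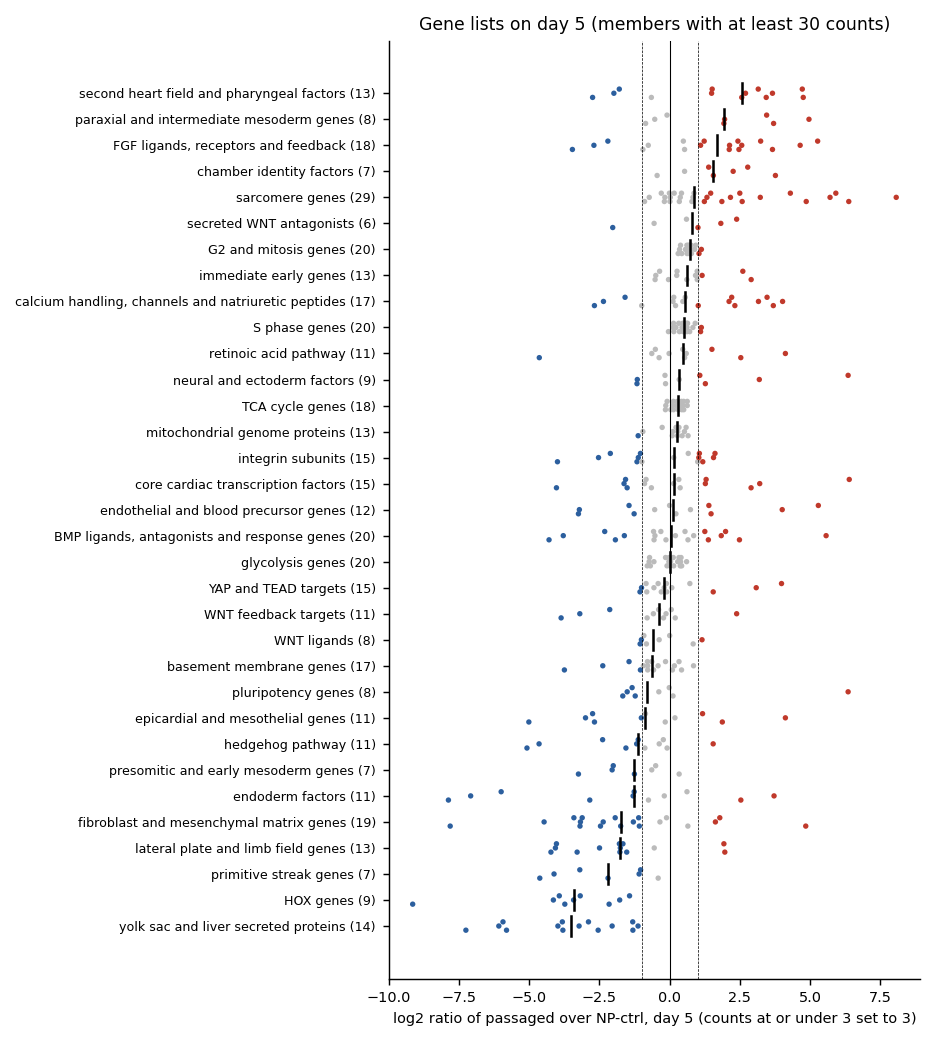
log2 ratio of passaged over NP-ctrl on day 5 (x axis) for the members of 33 gene lists (rows, ordered by median, number of members above the filter in brackets). Each point is 1 gene, red when called higher and blue when called lower, black bars are medians and dashed lines mark 2-fold. The second heart field list, at 2.57, and the yolk sac and liver list, at -3.52, lie at the ends.

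A large difference lay in a transcription factor with no usual role in heart muscle. SOX2 (ENSG00000181449, chr3:181711925-181714436) keeps pluripotent, neural and foregut progenitors, and its count was 20 in NP-ctrl and 1594 in passaged cells. Its FPKM of 0.51 and 41.6 differed 81.8-fold (52.8 to 134.3). It was 97.1 on day 0 and 8.47 on day 2, and in passaged cells 12.1 on day 3, so that the passaged level went up again after day 2 and the NP-ctrl level went down. SOX3 was 9.13-fold higher with 10 and 89 counts. The other neural and ectoderm factors were mixed, with TFAP2A and TFAP2B 2.41-fold and 2.10-fold higher, ZIC2 and OTX2 2.24-fold and 2.23-fold lower, and ZIC1 and PAX7 not called. Of 9 factors 4 were thus higher and 2 lower. Pluripotency genes did not follow either. POU5F1 had an FPKM of 6.26 and 2.47, 2.53-fold lower (2.02 to 3.19), ZFP42 was 2.86-fold lower, and LIN28A was near equal at 224.3 and 243.5. SOX2 sits within SOX2-OT, a long noncoding gene, and no exon bases shared by them were found in GENCODE 44.

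A few genes of somite and kidney mesoderm were detected mainly in passaged cells, at low levels. Of 8 paraxial and intermediate mesoderm genes above the filter, 5 were higher and 0 lower. PAX1, a marker of sclerotome and pharyngeal pouches, had 0 counts in NP-ctrl and 91 in passaged cells. PAX1 was 31.1-fold higher with 0 set to 3 counts. MEOX2 had 0 and 38 counts. PAX8 had 1 and 32 counts, a ratio of 32.8 (5.49 to 1337). OSR1 had 14 and 52 counts and was 3.81-fold higher. SALL1 was the abundant member, with an FPKM of 14.9 and 57.6, from 100.9 on day 2. The direction of this list rests on members with few counts. Its median log2 ratio was 1.94, and it was -0.53 with a minimum of 100 counts and -0.31 with at least 30 counts in both libraries.

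Genes of the primitive streak and early mesoderm were lower in passaged cells. Among 7 streak genes 6 were lower and 0 higher, with a median log2 ratio of -2.20 that was -0.75 with at least 30 counts in both libraries and -1.09 with no filter. LHX1 was 176.9 on day 2 and 1.70 and 0.80 on day 5, and EOMES was 128.4 on day 2 and 0.70 and 0.34 on day 5. CDX2, a caudal factor, had 76 and 3 counts, a ratio of 24.7 in favour of NP-ctrl (8.13 to 122.4), and NODAL 107 and 6, 17.4-fold lower (7.73 to 48.4). MIXL1 was not called. Of 7 presomitic and early mesoderm genes, 4 were lower, 0 higher and 3 within 2-fold. MESP1, the first factor of cardiac mesoderm, was 81.8 on day 2 and 0.92 in NP-ctrl and 0.22 in passaged cells on day 5. KDR, the VEGF receptor of multipotent mesoderm and endothelium, was still high in NP-ctrl, with an FPKM of 62.8 on day 2, 113.1 in NP-ctrl and 11.9 in passaged cells, 9.51-fold lower (8.95 to 10.1). PDGFRA, the second receptor used to mark cardiac mesoderm, was not called at 67.2 and 47.6.

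Lateral plate and limb field genes were largely lower, with 10 of 13 lower, 2 higher and a median log2 ratio of -1.77. PRRX1, a factor of limb and body wall mesenchyme, had an FPKM of 47.4 and 2.53, 18.8-fold lower (16.7 to 21.1). FOXF1, the factor of splanchnic mesoderm, was 16.8-fold lower and MSX1, a BMP target, 9.83-fold lower, at 94.4 and 9.60. TBX3, TBX2, SNAI2 and MSX2 were 3.17-fold to 3.46-fold lower. PRRX2 went the other way, 3.90-fold higher at 9.05 and 35.3.

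HOX genes, which mark positions behind the head and anterior heart, were lower without exception among the 9 above the filter. The other 23 of the 32 listed HOX genes were under 30 counts in both libraries. HOXB6 (ENSG00000108511, chr17:48595751-48604992) had 1753 counts in NP-ctrl and 2 in passaged cells, a ratio of 854.1 in favour of NP-ctrl (236.1 to 7058). In NP-IWP2 its FPKM was 9.96, between 42.96 in NP-ctrl and 0.05 in passaged cells. HOXB5, HOXB4, HOXB3 and HOXB2 were 17.7-fold, 9.10-fold, 4.46-fold and 2.69-fold lower, and HOXB1 and HOXC4 had 0 counts in passaged cells against 41 and 33. HOXB7 and HOXB13, the remaining members, had 47 and 3 counts and 127 and 36 counts. From HOXB2 to HOXB6 the size of the difference rose in the order of the genes along the cluster. HOXB1, HOXB7 and HOXB13 did not follow that order. HOXB6 shares 16.6% of its exon bases with HOXB3 and 16.3% with the antisense gene HOXB-AS3, so part of its counts could belong to either. Other named genes also share exon bases with another gene in GENCODE 44. On the same strand these were SOX7 (39.4%, with PINX1), AXIN2 (25.3%), MT-ATP8 (22.2%), HOXC4 (17.5%), LDB3 (16.4%), PDGFRA (16.1%) and TNNT2 (15.4%). On the opposite strand they were NODAL (33.5%), IER3 (32.6%), DUSP6 (28.6%), HAND2 (24.1%), TCF21 (23.5%), PAX8 (22.4%), CDCA7L (21.4%), TPM1 (18.0%), KRT18 (17.1%), ACTA1 (16.6%), BMP4 (16.3%) and ACTC1 (15.7%), and other named genes had smaller shares.

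Endoderm factors were mostly lower in passaged cells, with 6 of 11 lower and 2 higher. HNF4A, a factor of visceral endoderm and liver, had 725 counts in NP-ctrl and 0 in passaged cells, 235.5-fold lower with 0 set to 3 counts. SOX17, which defines definitive endoderm, had 419 and 3 counts, a ratio of 136.1 in favour of NP-ctrl (46.2 to 662.6). FOXA2 was 7.19-fold lower with 450 and 61 counts. PRDM1 and CXCR4, which also serve outside endoderm, were 13.1-fold and 5.79-fold higher. The epithelial genes CDH1 and EPCAM were not called, at 20.6 and 31.6 for CDH1 and at 32.4 and 28.4 for EPCAM. The 14 yolk sac and liver genes above the filter were lower, with a median log2 ratio of -3.52. It was -1.31 with at least 30 counts in both libraries and -1.58 on the log2(FPKM + 1) scale, since several members passed only through NP-ctrl. The lipoprotein APOA1 (ENSG00000118137, chr11:116835751-116837622) had an FPKM of 100.6 and 0.66, 153.1-fold lower (85.3 to 307.2). MTTP, FGB and APOA2 were 56.1-fold to 67.9-fold lower with 8, 5 and 3 counts in passaged cells. APOE was the most abundant member and was also lower, at 551.3 and 252.5. HABP2, a plasma protease, had 626 and 3 counts, a ratio of 203.3 in favour of NP-ctrl (69.3 to 988.6).

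Genes of fibroblasts and mesenchymal matrix were mostly lower in passaged cells. Of 19 members 13 were lower and 3 higher, with a median log2 ratio of -1.75. The proteoglycan LUM (ENSG00000139329, chr12:91102629-91111494) had an FPKM of 331.8 in NP-ctrl and 1.47 in passaged cells, 225.5-fold lower (175.1 to 295.7). The fibrillar collagen COL3A1 had 811.6 and 89.6 and was 9.05-fold lower (8.86 to 9.25), while COL1A2, COL6A1 and COL6A2 were 9.15-fold, 5.52-fold and 5.16-fold lower, and COL1A1 only 2.15-fold. VIM was 2.45-fold lower, at 1030.0 and 420.3. The highest ratio in the list was that of CD44, with a log2 ratio of 4.85 that was 0.62 on the log2(FPKM + 1) scale. An abundant exception was FN1 (ENSG00000115414, chr2:215360440-215436073), the fibronectin that anchors migrating mesoderm through integrins. It had 80442 counts in NP-ctrl and 269851 in passaged cells, 3.44-fold higher (3.42 to 3.47), from an FPKM of 27.7 on day 2. IGSF10, RELN and SLC39A2, which belong to no list, were 66.0-fold, 41.2-fold and 139.8-fold lower, the last with 287 and 2 counts (interval 38.4 to 1160). SHISA3 had 345 counts in NP-ctrl and 1 in passaged cells, a ratio of 336.2 in favour of NP-ctrl (59.9 to 13316), and the potassium channel gene KCNJ3 was 127.5-fold lower (58.3 to 348.5). CST1, a secreted protease inhibitor, had 134 and 0 counts and was 43.5-fold lower with 0 set to 3 counts. The bound of its exact interval nearest to 1 was 34.9-fold.

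Epicardial and mesothelial genes were divided. WT1 had 166 and 5 counts and was 32.4-fold lower (13.6 to 100.9), BNC1 was 7.99-fold lower, and the keratins KRT8 and KRT18 were near equal at 382.3 and 342.4 and at 319.6 and 364.0. ALDH1A2, which makes retinoic acid in mesothelium and in posterior heart progenitors, was 17.4-fold higher (13.6 to 22.5), at 0.53 and 9.28. Of 11 members, 5 were lower and 3 higher. Endothelial and blood precursor genes showed no common direction, with 4 higher, 4 lower and 4 within 2-fold among 12. LMO2, a blood and endothelial cofactor, had 10 and 382 counts and was 39.2-fold higher (21.1 to 82.4), whereas KDR, SOX7 and FLT1 were lower and the defining endothelial gene PECAM1 had 3 counts in NP-ctrl and 0 in passaged cells.

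Replating breaks the contacts of cells with each other and with the matrix, and on day 5 the adhesion genes were mixed. Of 15 integrin subunits 5 were higher and 6 lower, and the shared beta subunit ITGB1 was within 2-fold at 32.1 and 35.5. The fibronectin and vitronectin subunit ITGAV was 2.08-fold higher, at 24.4 and 50.7, and the laminin subunits ITGA6 and ITGA7 2.26-fold and 2.95-fold higher. ITGA5, the classical partner of fibronectin, was 2.24-fold lower, at 15.1 and 6.73,. ITGA8 and ITGA11 were 5.80-fold and 16.0-fold lower. NPNT, the matrix ligand of ITGA8, had an FPKM of 19.0 and 1.41 and was 13.4-fold lower (11.3 to 16.2). Of 17 basement membrane genes 4 were lower, 0 higher and 13 within 2-fold, with the laminin gene LAMC1 at 150.5 and 87.4. Targets of YAP and TEAD, which report tension and adhesion, were mostly within 2-fold, with 3 higher and 2 lower of 15. The 3 were ANKRD1, at 11.8 and 185.9 (15.8-fold, 14.1 to 17.7), CCN2, at 29.3 and 247.8 (8.46-fold, 7.94 to 9.02), and CCN1, 2.93-fold. AMOTL2, AJUBA and LATS2 were within 1.3-fold. ANKRD1 is also a heart muscle gene. Of 13 immediate early genes, EGR1, KLF2 and IER3 were higher, EGR1 by 7.47-fold, and FOS and JUN were not called.

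WNT genes are of interest because passaged cells received no WNT inhibitor. Of 11 feedback targets 3 were lower, 1 was higher and 7 were within 2-fold. AXIN2, the most general target, was near equal at an FPKM of 7.24 and 6.62, a ratio of 1.09 in favour of NP-ctrl (0.972 to 1.23), and LEF1 was not called at 61.2 and 35.1. LGR5, SP5 and NKD1 were 14.6-fold, 9.20-fold and 4.39-fold lower. The secreted antagonist DKK1, itself a WNT target, was 5.22-fold higher (4.54 to 6.02), at 6.90 and 36.0, with 2.61 in NP-IWP2. SFRP2 and SFRP1 were 3.53-fold and 2.01-fold higher and SFRP5 4.08-fold lower, and SFRP1 was just under 2-fold with TMM factors, median of ratios or TPM. Among 8 ligands, WNT6 was 2.22-fold higher and WNT3 2.08-fold lower.

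BMP genes were divided between ligands. BMP4, which induces lateral mesoderm and HAND1, had an FPKM of 153.6 and 30.9 and was 4.97-fold lower (4.70 to 5.27), and BMP6 was 13.8-fold lower. GDF7, a member of the same ligand family, was 85.1-fold lower (55.5 to 137.8) with 1834 and 21 counts. BMP2, BMP7 and BMP10 were 2.38-fold, 3.97-fold and 5.60-fold higher, and BMP5 was not called at 125.1 and 100.6. Antagonists were divided too. GREM1 had 23 and 1065 counts and was 47.5-fold higher (31.5 to 75.3), CHRD was 2.60-fold higher, and FST was 3.82-fold lower. Response genes gave no common direction, with ID1, ID2, ID3 and SMAD7 within 2-fold, ID4 3.57-fold higher and SMAD6 3.06-fold lower. Of the 20 genes, 6 were higher, 5 lower and 9 within 2-fold.

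Hedgehog genes were lower, with 6 of 11 lower, 1 higher and a median log2 ratio of -1.12. The ligand IHH, made by yolk sac and gut endoderm, had 313 and 9 counts and was 33.9-fold lower (17.6 to 74.8). The target genes GLI1 and PTCH1 were 25.1-fold and 5.24-fold lower, at an FPKM of 3.61 and 0.14 for GLI1 and at 18.0 and 3.43 for PTCH1. The signal transducer SMO was near equal at 37.4 and 35.1. In the retinoic acid list of 11 genes, ALDH1A2, the receptor RARB (5.78-fold) and the binding protein CRABP2 (2.84-fold) were higher. ALDH1A1 had 77 counts in NP-ctrl and 0 in passaged cells, 25.0-fold lower with 0 set to 3 counts.

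Proliferation genes were slightly above 0, and metabolic genes differed little. All 20 genes of G2 and mitosis were above 0 on the log2 scale, with a median of 0.71 against 0.036 for all genes. The 2 called were CENPE and UBE2C, at 2.19-fold and 2.06-fold, where 6.46% of all genes were called higher. TOP2A had an FPKM of 34.6 and 59.2, and MKI67 8.15 and 11.0. Among 20 S phase genes 19 were above 0, with a median of 0.50, and RRM2 and CDC6 were called. Under each of the other scalings tried, these medians stayed above 0. None of 20 glycolysis genes and none of 18 genes of the TCA cycle was called, with medians of 0.019 and 0.29. Of the 13 proteins coded by the mitochondrial genome only MT-ATP8, whose reading frame overlaps another gene, was called, 2.18-fold lower.

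The shared day 2 library shows in which arm a level lay away from its start. Of the 990 higher genes, 307 (31.0%) were at least 2-fold above day 2 in passaged cells and within 2-fold of it in NP-ctrl, 281 were above day 2 in both arms, and 189 (19.1%) were within 2-fold of day 2 in passaged cells and below it in NP-ctrl. NKX2-5, MYH6 and FGF10 were above day 2 in both arms and MYBPC3 in passaged cells only. FOXC1 was below day 2 in NP-ctrl only, and SPRY4 was below it in both. Of the 1434 lower genes, 398 (27.8%) were above day 2 in NP-ctrl and within 2-fold of it in passaged cells, 362 were above it in both, and 320 (22.3%) were below it in passaged cells and within 2-fold in NP-ctrl. HOXB6 was above day 2 in NP-ctrl only, LUM and APOA1 were above it in both arms, and KDR and GJA1 were below it in passaged cells only. The day 5 libraries also made the call, so these counts are a description.

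**Figure D3:**
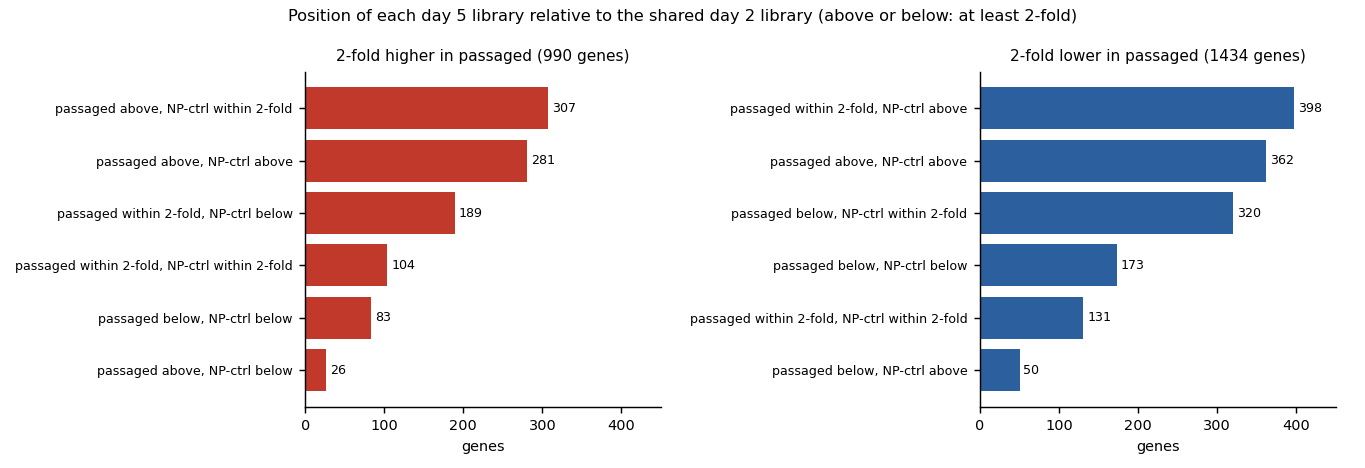
Number of genes (x axis) by the position of each day 5 library relative to the shared day 2 library, for the 990 genes higher (left) and the 1434 genes lower (right) in passaged cells. The largest groups are the 307 genes above day 2 in passaged cells only and the 398 genes above day 2 in NP-ctrl only.

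The day 5 differences were then looked up on the other days, each with its own libraries. On day 3, 9.83% of the genes tested were called higher in passaged cells and 7.62% lower. On day 7 these shares were 7.98% and 15.1%, and on day 10 they were 9.48% and 20.3%. Of the higher genes of day 5 that passed the filter, 234 of 723 (32.4%) were also higher on day 3. The same was true of 393 of 801 (49.1%) on day 7 and of 291 of 791 (36.8%) on day 10. On day 10, 181 of these 791 (22.9%) had turned lower, near the 20.3% of all genes. Of the lower genes, 256 of 1069 (23.9%) were also lower on day 3, where 150 (14.0%) were higher instead. On day 7, 773 of 1220 (63.4%) were lower, and on day 10 it was 754 of 1198 (62.9%). The share with the direction of day 5 was thus larger for the lower genes than for the higher ones on days 7 and 10, as was the share of all genes that were lower on those days. The passaged library of day 3 had 1.53% of its counts from the mitochondrial genome against 4.80% in NP-ctrl, and the part of this in the day 3 values was not tested. On day 10 this share was 10.3% in passaged cells and 3.72% in NP-ctrl, and its part in the day 10 values was not tested either. List medians on the other days use the members kept on day 5, also where a member was under the filter there. By list, the second heart field median was 2.57 on day 5 and 0.52, 1.46 and 1.13 on days 3, 7 and 10. The sarcomere median was 0.87 on day 5 and 2.51 and 2.86 on days 7 and 10. Its day 3 value of 0.25 is that of any gene with both counts at or under 3, such as MYBPC3. It reflects the library totals and not a difference in level. The G2 and mitosis median went from -0.30 and 0.71 on days 3 and 5 to -0.007 and -1.69 on days 7 and 10. The yolk sac and liver median went from -0.070 and -3.52 to -4.86 and -6.36. The FGF median was 1.67 on day 5 and 0.64, 0.68 and 0.25 on days 3, 7 and 10. Since day 5 counts chose the members, these medians cannot show on which day a list differed most.

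**Figure D4:**
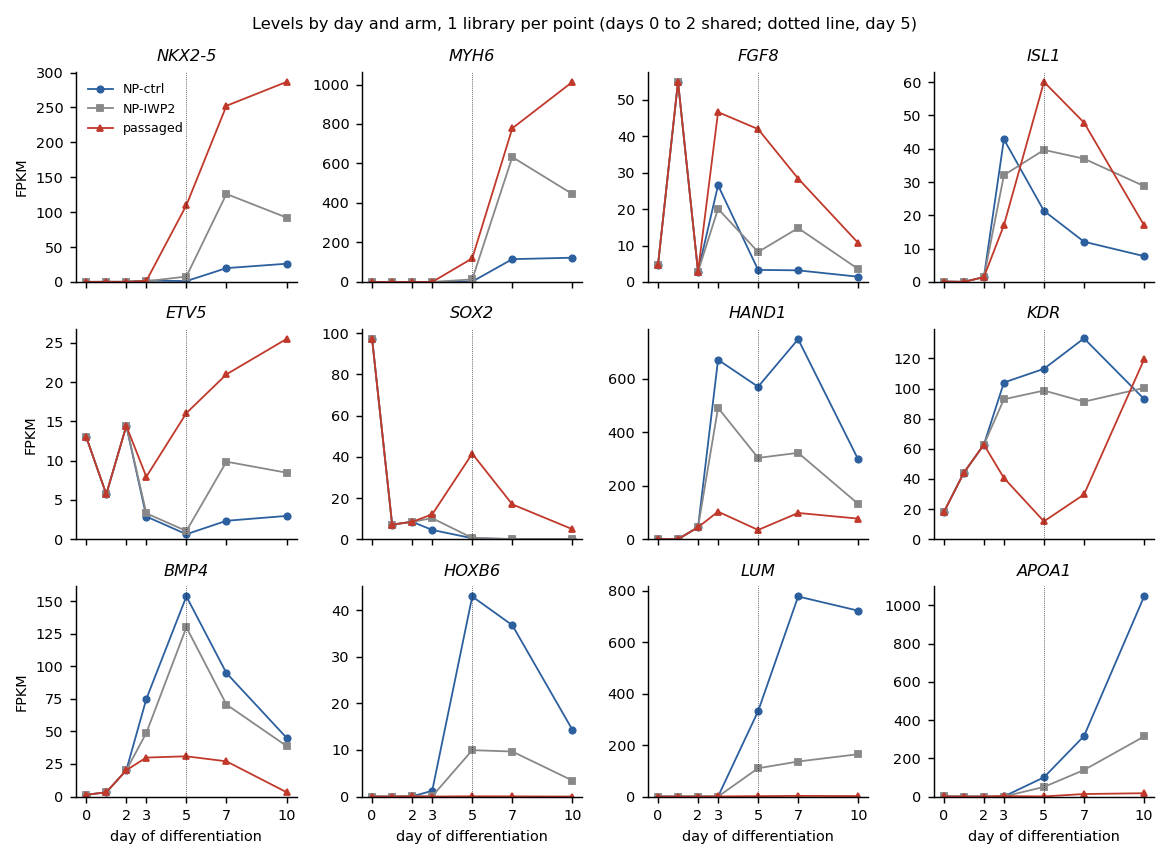
FPKM (y axis) by day (x axis) of 12 genes in NP-ctrl (blue circles), NP-IWP2 (grey squares) and passaged cells (red triangles), 1 library per point, with days 0 to 2 shared. NKX2-5 and MYH6 separate on day 5 and stay apart, and in passaged cells ISL1 and SOX2 are at 60.0 and 41.6 on day 5. LUM stays under 3 in passaged cells on days 3 to 10, and APOA1 reaches 17.4 there against 1047 in NP-ctrl on day 10.

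Single genes followed these courses. ISL1 in passaged cells was at 60.0 on day 5, against 17.1 and 17.0 on days 3 and 10, and its highest level in NP-ctrl was 42.8, on day 3. KDR in passaged cells went from 40.7 through 11.9 to 119.3 on days 3, 5 and 10, and NP-ctrl was at 93.0 on day 10, a ratio within 2-fold. TBX20, lower on day 5, was 121.2 in passaged cells and 25.6 in NP-ctrl on day 10. HAND1 stayed lower in passaged cells on all of days 3, 5, 7 and 10, at 103.2 against 671.1 on day 3 and 77.2 against 298.3 on day 10. HEY1, FOXC1 and DKK1 were higher on days 5 and 7 and lower on day 10. MYH6 was 0.42 in NP-ctrl and 0.01 in passaged cells on day 3, and NPPB 9.21 and 0.21, so both were lower in passaged cells before they were higher.

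**Figure D5:**
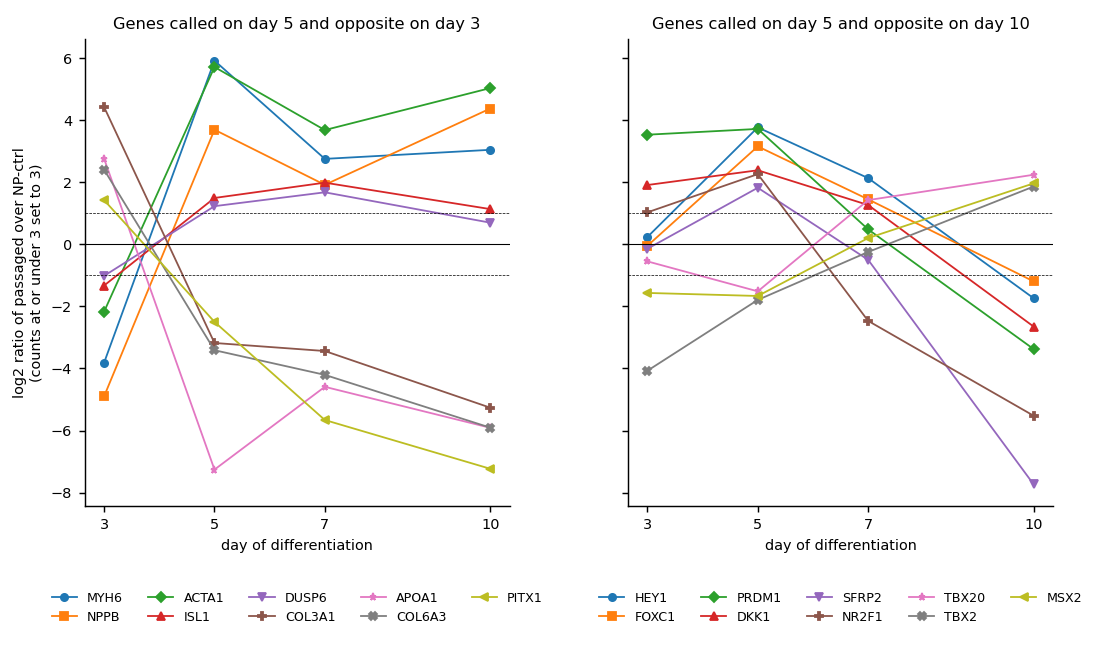
log2 ratio of passaged over NP-ctrl (y axis) by day (x axis) for 18 genes called on day 5 that were called the opposite way on day 3 (left) or day 10 (right), 1 library per arm and day, with dashed lines at 2-fold. MYH6 and NPPB cross upwards between days 3 and 5, and HEY1, FOXC1 and DKK1 cross downwards after day 7.

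NP-IWP2 cells, like NP-ctrl, were not replated, and their comparison with NP-ctrl shares that control library, so the 3 levels of day 5 are given side by side in the order NP-ctrl, NP-IWP2 and passaged. For NKX2-5, FGF8, ISL1 and TNNT2 the NP-IWP2 level lay between the others, and for TBX5 it was above both. NKX2-5 was 1.31, 7.80 and 110.0, and FGF8 was 3.32, 8.23 and 41.9. ISL1 was 21.3, 39.6 and 60.0. TNNT2 was 12.02, 14.6 and 15.2, and TBX5 1.64, 2.80 and 0.53. For SOX2 the levels were 0.51, 0.65 and 41.6, for ETV5 0.64, 1.05 and 16.1, and for ANKRD1 11.8, 13.2 and 185.9, so that NP-IWP2 was near NP-ctrl in each. Among genes lower in passaged cells, NP-IWP2 was in between for LUM at 331.8, 110.0 and 1.47, APOA1 at 100.6, 50.2 and 0.66, and HAND1 at 570.4, 304.3 and 34.8. KDR was 113.1, 98.7 and 11.9 and BMP4 153.6, 129.9 and 30.9, again close to NP-ctrl.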

How the data were processed

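RNA from 15 bulk libraries of H1 cells was sequenced, 1 per arm and day. Per the submitters' processing notes and the methods, the authors trimmed reads with Cutadapt 1.9.1, aligned them to hg38 with HISAT2 2.0.1 and counted them per gene with HTSeq 0.6.1. DESeq2 is named without a version. The strand setting and the annotation are not given in the sources used here. A long-read library kit is named beside these short-read tools, which leaves the length scaling of the values in doubt. Gene counts were deposited as whole reads without normalization. The deposited FPKM values are those counts scaled by gene length and library total, and recomputing them from the counts gave the same values within 0.005. No column of the authors' own comparisons was used.

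Ratios of passaged over NP-ctrl were taken from counts over library totals, with exact 95% binomial intervals that cover counting error only, since PCR copies are counted too. Genes needed 30 counts in either library, counts at or under 3 were set to 3, and 2-fold was called. For a gene of 1 kb, 3 counts are an FPKM of 0.191 in NP-ctrl and 0.196 in passaged cells. The 33 gene lists hold 554 genes, of which 435 passed the filter and 119 did not. The members and lists were chosen with earlier results of these data known. Genes named besides list members were the 12 per direction that led by the near bound of the interval among protein-coding genes with an FPKM of at least 5. Symbols missing from the table were added from an ID table for 19913 of 20014 genes. Gene coordinates are those of the deposited table, and promoters are from RefSeq on GRCh38.p14. Exon overlaps were read from GENCODE 44. Many list members were counted but are not named, and some are not reported here. The scripts were tested on simulated data. Python 3.11.15, scipy 1.17.1, R 4.3.3, edgeR 4.0.16 (TMM factors) and DESeq2 1.42.0 (size factors) were used, the last pair only for other scalings.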

Additional observations from a re-analysis of the deposited data

Results flagged for a closer look

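Some genes named in the report were past 2-fold in opposite directions on day 5 and on another day. Each value below is the log2 ratio of passaged over NP-ctrl on that other day, from 1 library per arm, and the difference between days was not tested. On day 3, 12 of the 164 called genes that were looked up in this way were opposite. Those lower on day 3 and higher on day 5 were ACTA1 at -2.17, ANKRD1 at -1.21, DUSP6 at -1.02, ISL1 at -1.33, MYH6 at -3.81 and NPPB at -4.89. Those higher on day 3 and lower on day 5 were APOA1 at 2.75, COL1A1 at 1.32, COL3A1 at 4.42, FST at 2.18, ITGA8 at 1.19 and SFRP5 at 1.49. Some of these values rest on few counts on day 3. NP-ctrl and passaged cells then had 32 and 6 counts for ACTA1, 50 and 1 for MYH6, and 6 and 34 for APOA1. The day 3 libraries also differed in their share of mitochondrial counts, 1.53% in passaged cells and 4.80% in NP-ctrl, and its part in these values was not tested.

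On day 7, 4 genes were opposite. NR2F2 at -1.02 was lower on day 7 and higher on day 5, and those higher on day 7 and lower on day 5 were BMP6 at 1.49, MT-ATP8 at 1.15 and TBX20 at 1.42. On day 10, 22 genes were opposite. Those lower on day 10 and higher on day 5 were BMP10 at -2.38, CCN1 at -1.33, CDCA7L at -1.83, CDC6 at -1.31, CENPE at -2.06, DKK1 at -2.65, EGR1 at -1.83, FOXC1 at -1.20, HEY1 at -1.74, NR2F2 at -1.49, PRDM1 at -3.38, PRRX2 at -1.45, RRM2 at -1.61, SFRP2 at -7.73, TFAP2A at -1.47 and UBE2C at -2.41. Those higher on day 10 and lower on day 5 were MSX2 at 1.96, MT-ATP8 at 1.66, SMAD6 at 1.18, TBX2 at 1.86, TBX20 at 2.24 and TBX3 at 1.24. Among the genes that turned lower were the cell cycle genes CDC6, CENPE, RRM2 and UBE2C and the secreted WNT antagonists DKK1 and SFRP2.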

How the results depend on the processing

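With 1 library per arm and day, no value here has a replicate check, and a culture that stood apart could not be seen. No paired analysis was possible because each arm has 1 library per day and no test was made. On day 5 the main rule called 2424 genes, 990 higher and 1434 lower. The counts called, both ways and then higher and lower, were 1085, 424 and 661 on the log2(FPKM + 1) scale, 4155, 1804 and 2351 with at least 10 counts in either library, 1427, 575 and 852 with at least 100, 1371, 576 and 795 with at least 30 in both libraries, and 5311, 2507 and 2804 with no filter. They were 837, 309 and 528 at 4-fold, 4697, 2191 and 2506 at 1.5-fold, and 1443, 566 and 877 with the whole interval beyond 2-fold. TMM factors, median of ratios, TPM, leaving out mitochondrial genes, protein-coding genes only and log2(FPKM + 0.1) gave 1886 to 2436. A floor of 10 counts gave 2424 and is no check, since with the filter of 30 counts it could not change a call. Higher genes were 36.9% to 47.2% of those called, against 40.8%. The median of the paraxial and intermediate mesoderm list was reversed, from 1.94 to -0.53 with at least 100 counts and to -0.31 with at least 30 in both libraries, settings that by construction drop its members with few counts. Of 229 gene ratios followed, 50 were no longer 2-fold under at least 1 other scaling or pseudocount, all 50 on the log2(FPKM + 1) scale, 11 with log2(FPKM + 0.1) and 2 or 3 under each of TMM, median of ratios, TPM and leaving out mitochondrial genes, and 0 were reversed. List medians fell under 2-fold for 5 lists in 13 cases: primitive streak (-0.75 with at least 30 counts in both libraries), presomitic (-0.64 to -0.95), paraxial and intermediate mesoderm (0.037 to 0.92), endoderm (-0.76 and -0.79) and hedgehog (-0.84 and -0.88). The HOX median went from -3.42 to -2.16 with at least 30 counts in both libraries. Leaving out a replicate could not be run.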
